A study of Mus musculus with 8 samples.

Results

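Acyl-CoA thioesterases cut the bond between a fatty acid and coenzyme A. The 9 genes described here are Acot2, Acot3, Acot4, Acot5, Acot6, Acot7, Acot8, Acot11 and Acot13, taken by exact gene symbol from the platform annotation. They are 9 of 18193 genes with a usable name on the array, and all 9 were measured, by 13 probe sets. RNA of gonadal white fat from mice aged 10 weeks, on a Swiss background, was hybridised to 8 Affymetrix arrays. Of these, 4 arrays (replicates 6, 8, 9 and 10) came from aP2-Pex5 -/- mice, called knockout, and 4 (replicates 1, 2, 3 and 4) from mice labelled wild type, called control. No group was treated. The aP2 promoter belongs to the fatty acid binding protein gene Fabp4 and is used to direct a deletion to adipocytes, though it is known to act in some other cells too, such as macrophages, and which cells of the fat pad lost Pex5 was not measured here. The labels do not name the recombinase and do not say whether each array is a separate animal, so a p-value here speaks of the spread among these arrays, which may be technical.

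Thioesterases release free fatty acid and coenzyme A, and each compartment of the cell has its own set. In the mouse, Acot3, Acot4, Acot5, Acot6 and Acot8 act in peroxisomes, where they end the shortening of very long, branched and dicarboxylic acyl chains. Acot2 acts in the mitochondrial matrix, Acot13 is mainly found with mitochondria, and Acot7 and Acot11 are largely cytosolic. Pex5 is the receptor that carries enzymes with the common C-terminal peroxisomal signal into the organelle, so the peroxisomal members depend on it for their place in the cell. An array measures their transcripts and not where the proteins are. Acot1 to Acot6 form a cluster of related genes on mouse chromosome 12. The nuclear receptor PPARalpha, a sensor of fatty acids, is known to induce several of them in liver.

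The sequences before the start sites of the peroxisomal members Acot3, Acot4, Acot5 and Acot8, and of the mitochondrial member Acot2, are shown as examples. RefSeq on GRCm38.p6 gave such a sequence for 7 of the 9 genes, all but Acot6 and Acot13. Those of Acot7 and Acot11 are not printed. Each runs 5′ to 3′ on the gene's strand from 250 bases before the start to 50 after it, and the first listed start is shown for Acot3 and Acot5. Capitals mark AGGTCA, the core letters that PPARs and related nuclear receptors bind, on either strand, in the first 3, and CCAAT, on either strand, in the last 2. They lie at chr12:84051894-84052193 (+), chr12:84038129-84038428 (+), chr12:84069074-84069373 (+), chr2:164804832-164805131 (-) and chr12:83987611-83987910 (+), in the order printed.
Acot3: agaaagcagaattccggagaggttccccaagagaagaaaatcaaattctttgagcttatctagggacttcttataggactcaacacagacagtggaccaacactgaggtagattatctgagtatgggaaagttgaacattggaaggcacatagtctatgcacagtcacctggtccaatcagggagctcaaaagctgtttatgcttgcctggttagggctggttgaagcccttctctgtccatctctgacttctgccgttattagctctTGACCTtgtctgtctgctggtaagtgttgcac
Acot4: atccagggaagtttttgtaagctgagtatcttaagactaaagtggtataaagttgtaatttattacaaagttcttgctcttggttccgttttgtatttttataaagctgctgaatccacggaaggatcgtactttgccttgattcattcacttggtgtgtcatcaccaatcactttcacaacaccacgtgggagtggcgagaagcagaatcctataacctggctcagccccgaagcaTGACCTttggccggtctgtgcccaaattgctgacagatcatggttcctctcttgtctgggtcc
Acot5: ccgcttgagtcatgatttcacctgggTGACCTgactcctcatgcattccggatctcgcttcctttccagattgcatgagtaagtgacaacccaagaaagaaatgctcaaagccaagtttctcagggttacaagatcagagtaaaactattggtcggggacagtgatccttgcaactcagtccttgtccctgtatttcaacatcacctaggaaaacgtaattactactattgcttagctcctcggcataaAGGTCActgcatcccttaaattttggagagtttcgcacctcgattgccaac
Acot8: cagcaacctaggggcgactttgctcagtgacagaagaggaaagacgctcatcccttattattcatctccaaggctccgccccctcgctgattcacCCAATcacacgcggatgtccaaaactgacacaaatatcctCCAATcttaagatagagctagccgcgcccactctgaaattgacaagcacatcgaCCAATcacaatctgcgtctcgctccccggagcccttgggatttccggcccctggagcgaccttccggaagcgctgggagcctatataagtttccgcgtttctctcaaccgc
Acot2: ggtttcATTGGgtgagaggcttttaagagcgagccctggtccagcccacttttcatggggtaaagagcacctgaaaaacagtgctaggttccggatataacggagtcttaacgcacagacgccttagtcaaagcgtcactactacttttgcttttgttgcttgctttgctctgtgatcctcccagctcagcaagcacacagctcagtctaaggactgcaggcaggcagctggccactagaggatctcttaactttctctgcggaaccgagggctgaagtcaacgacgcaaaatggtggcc
Among the 7 genes with a sequence, AGGTCA was in the windows of Acot3, Acot4 and Acot5 alone. It is in 16.3% of the 32851 windows of this length in the RefSeq table. In Acot4 the match was part of a longer one to GGNCANAGGTCA, a spaced pair of such cores with some letters free, which starts 13 bases before the start site on the opposite strand. That longer spelling was chosen after the sequence was seen, and it is in 0.207% of all windows. The strict pair AGGTCANAGGTCA was in 0 of the members' windows and in 0.0396% of all. The Acot8 window holds 3 copies of CCAAT, and 37.4% of all windows hold at least 1. CCAAT was in the windows of 6 of the 7 genes, all but Acot7, and is marked only in Acot8 and Acot2. A match is a run of letters and was not tested as a binding site.

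The median of the log2 values per array was between 6.44 and 6.52. By the lower quartile of their values the arrays fall into 2 sets, set A with knockouts 6 and 8 and controls 1 and 2, and set B with knockouts 9 and 10 and controls 3 and 4. The cut was placed at the widest gap between these quartiles, from 4.79 in control 2 to 4.83 in control 3. The sets thus come from the values themselves, and no label names them. The tissue label was borne out by 11 adipocyte markers, whose mean lay between 13.30 and 13.46 in knockout and 13.16 and 13.45 in control, all 11 above the median gene. Markers of other organs differed between arrays. The mean of 13 liver markers ran from 6.50 to 8.76 in knockout and from 6.52 to 10.80 in control, with control 1 the highest. The mean of 7 epididymal markers was 8.32 in knockout 8 and at most 5.79 on the other arrays, and that of 8 spermatid markers was 8.28 in knockout 9 and 7.80 in control 3. Of 2 probe sets for Pex5, 1426770_at read 9.50, 9.27, 9.38 and 9.30 in knockouts 6, 8, 9 and 10, against 9.52, 9.58, 9.34 and 9.06 in controls 1 to 4. The knockout values lay inside the control range, and the labels do not give the deleted exons, so this signal cannot check the genotype.

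None of the 9 thioesterases passed the test between knockout and control. Each difference is the knockout mean minus the control mean of log2 values, fitted with limma over all genes with Benjamini-Hochberg adjustment, and each gene is represented by its brightest probe set. The count of members with an adjusted p under 0.05 was 0 of 9, against 0% of the 18193 genes. At an unadjusted p under 0.05 it was also 0 of 9, against 2.56% of all genes. The groups overlapped in all 9, and were completely separated in 1.70% of all genes. Of the 9, 5 read higher in knockout and 4 lower, with a median of 0.03, where 46.7% of all genes were higher and the median was -0.01. Within set A 5 of 9 were higher, where 45.0% of all genes were, and within set B 6 of 9, where 53.4% were. The limma adjusted p was 0.999 for every member.

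The intervals give the precision of these differences. On the brightest probe set of each member the 95% interval lay between -1 and 1, which is less than a 2-fold change either way. For 7 of the 9 it also lay inside a 1.5-fold change (0.58 on the log2 scale), and Acot4 and Acot11 were the exceptions. Other choices reached further: the dimmer Acot2 probe set to 0.85, Acot11 without control 4 to 1.01 and Acot4 within set A to -1.05. Each interval reached to either side of its difference by a median of 0.32 over the members and 0.25 over all genes. With 4 arrays a group, the number of arrays limits this precision. In the plot of members by array, the 4 knockout points of each gene overlap its control points.

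**Figure D1:**
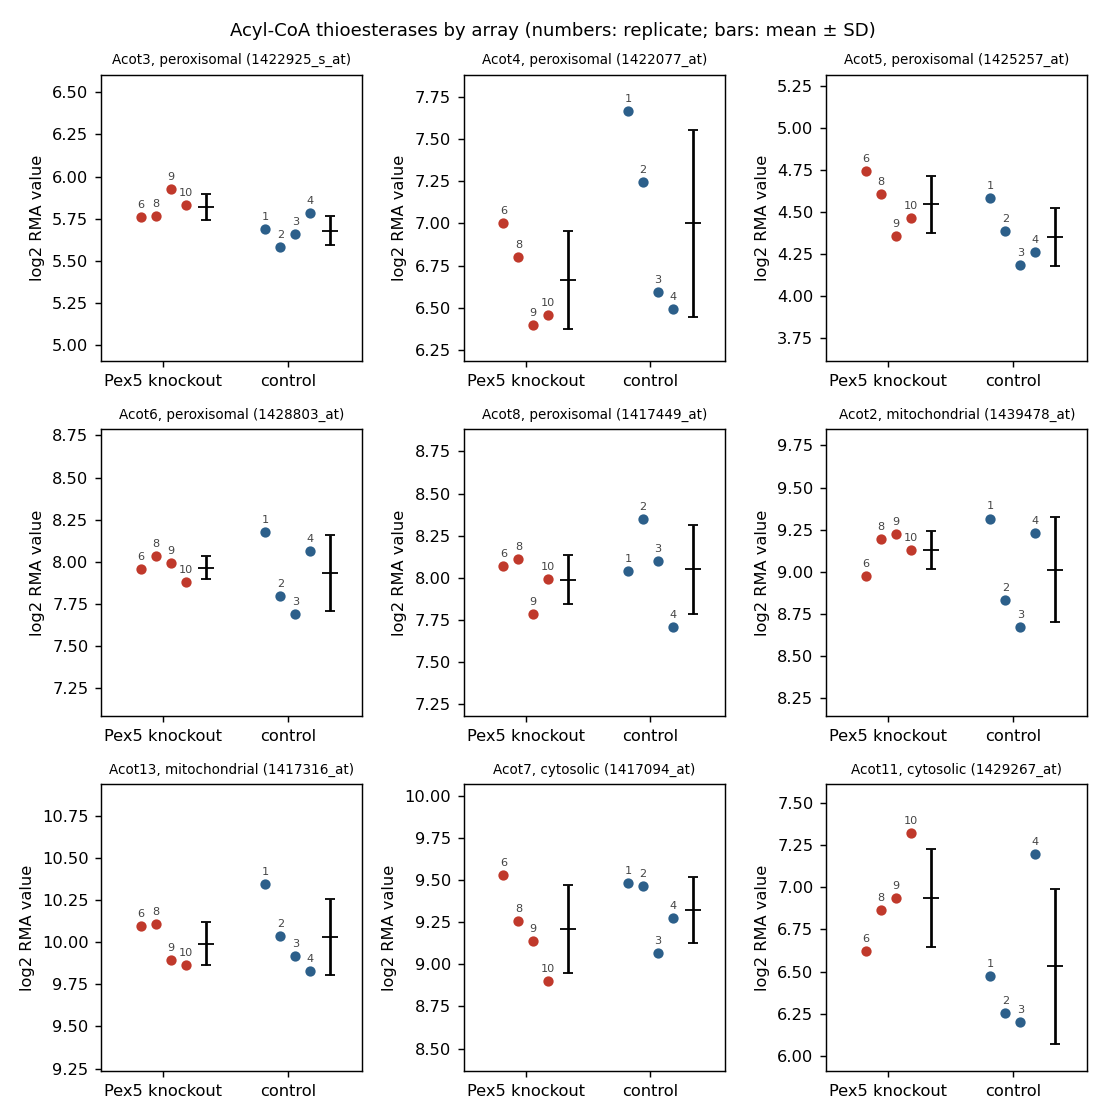
Log2 RMA values of the 9 thioesterases on each array, knockout left of control in each panel, with points numbered by replicate and bars giving mean ± SD (n = 4 each). Every panel spans the same log2 distance; Acot4 and Acot11 spread most between arrays, and no gene has separated groups.

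The peroxisomal members showed no common direction. Of the 5, 3 read higher in knockout and 2 lower, with a median difference of 0.03, and 0 passed. Acot8, a thioesterase of broad chain length range that stands outside the chromosome 12 cluster, read 8.07, 8.11, 7.79 and 7.99 in knockouts 6, 8, 9 and 10, against 8.04, 8.35, 8.10 and 7.71 in controls 1 to 4. All knockout arrays thus fell inside the control range. Its difference was -0.06 (95% interval -0.38 to 0.25).

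Acot3 and Acot5, a pair of neighbours in the cluster, had slightly higher means in knockout, and neither passed the test. Acot3, which acts on long-chain acyl-CoAs, read 5.76, 5.77, 5.93 and 5.83 in knockouts 6, 8, 9 and 10, against 5.69, 5.58, 5.66 and 5.79 in controls 1 to 4. Control 4 stood above knockouts 6 and 8, and knockouts 9 and 10 above every control. The difference was 0.14 (-0.02 to 0.31), with the smallest unadjusted limma p of the 9, 0.0863, and a two-sided exact permutation p of 0.0857 where 8 arrays allow 0.0286 at the least. The name of its probe set, 1422925_s_at, marks probes shared with other transcripts, so related genes of the cluster may add to it.

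Acot5, which prefers medium-chain acyl-CoAs, read 4.75, 4.61, 4.36 and 4.47 in knockouts 6, 8, 9 and 10, against 4.58, 4.39, 4.18 and 4.26 in controls 1 to 4. Within each array set both knockouts were higher than both controls. Within set A the difference was 0.19 and within set B 0.19. Over all 8 arrays it was 0.19 (-0.07 to 0.45). In both groups the arrays of set A were the brighter ones, with a mean of 4.58 against 4.32 in set B. With the set as a block, the unadjusted limma p of Acot5 was 0.0294 and the adjusted p 0.932. These values are near the lower end of the table, which holds no detection calls.

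On both probe sets of Acot6 the difference was smaller than the spread between replicates. Probe set 1428803_at averaged 7.97 ± 0.07 in knockout and 7.93 ± 0.23 in control (SD, n = 4 each), a difference of 0.03 (-0.23 to 0.29). Probe set 1460388_at averaged 5.75 ± 0.06 in knockout and 5.76 ± 0.10 in control. This was the 1 member of the 4 with a pair of probe sets in which they differed in sign, at 0.03 and -0.0114.

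Acot4, which acts on succinyl-CoA and other dicarboxylic acyl-CoAs in mouse peroxisomes, had the widest spread between arrays of the 9. Probe set 1422077_at read 7.00, 6.80, 6.40 and 6.45 in knockouts 6, 8, 9 and 10, against 7.67, 7.24, 6.60 and 6.49 in controls 1 to 4. Controls 1 and 2 were above every knockout, and controls 3 and 4 were below knockouts 6 and 8. The values spanned 1.27, more than 91.9% of all genes did, and the difference was -0.34 (-0.96 to 0.28; exact permutation p = 0.314). Probe set 1422076_at read 6.91, 6.90, 6.67 and 6.39 in knockouts 6, 8, 9 and 10, against 7.61, 7.07, 6.32 and 6.20 in controls 1 to 4. It put the groups closer, at -0.08 (-0.76 to 0.60).

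The array set and the liver markers moved with Acot4. On 1422077_at the difference was -0.55 within set A and -0.12 within set B, and the sets themselves differed by 0.70. On 1422076_at it was -0.43 within set A and 0.27 within set B, so the direction turned. The 3 arrays with the highest mean of liver markers, control 1 at 10.80, knockout 6 at 8.76 and control 2 at 8.18, were the 3 with the highest Acot4 on both probe sets. Next on both scales came knockout 8, with liver markers at 7.65. Knockout 9 and control 4 had the lowest liver marker means, 6.50 and 6.52. On 1422077_at they ranked 8 and 6 of the 8 arrays for Acot4, and on 1422076_at 5 and 8. The arrays of set A held liver ranks 1 to 4, so liver signal and array set cannot be told apart between the sets. Albumin (Alb), the main plasma protein made by liver, read from 8.06 to 11.97 in knockout and from 7.87 to 13.64 in control, while Cyp2e1, which adipocytes express too, stayed between 14.04 and 14.45. Without control 1 the Acot4 difference was -0.11. The part of liver RNA or of the array set in the Acot4 signal was not tested.

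**Figure D2:**
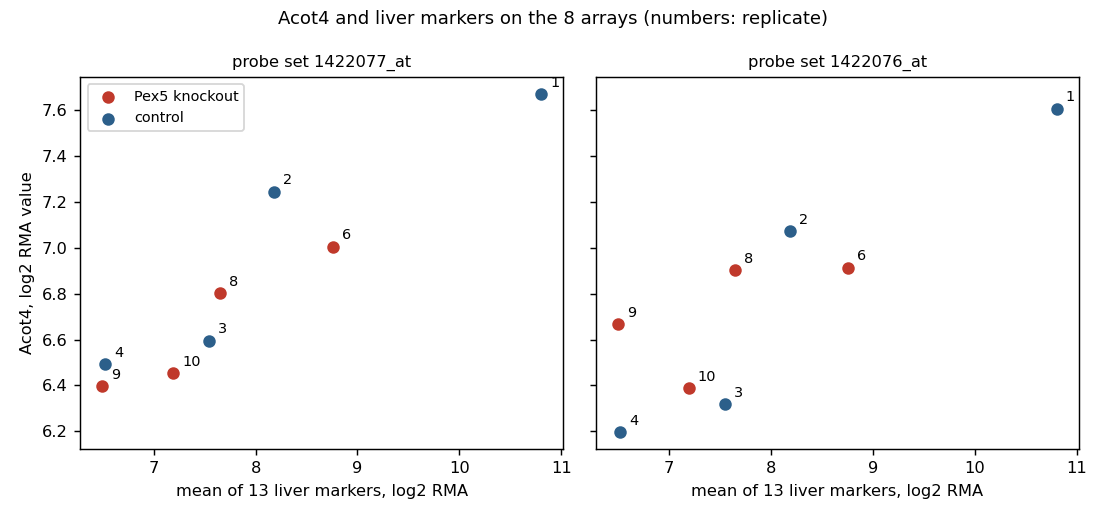
Log2 RMA value of the Acot4 probe sets 1422077_at (left) and 1422076_at (right) against the mean of 13 liver markers on the same array, knockout in red and control in blue, with points numbered by replicate. Control 1 is highest on both axes, at 10.80 for the liver markers; on 1422077_at knockouts 9 and 10 lie below every control, at 6.40 and 6.45.

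The mitochondrial members did not differ beyond their spread. Acot13, a small thioesterase that partners with the lipid transfer protein Pctp, averaged 9.99 ± 0.13 in knockout and 10.03 ± 0.23 in control (SD, n = 4 each), a difference of -0.04 (-0.32 to 0.24). The highest of the 8 arrays was control 1, at 10.35. Acot2, which frees fatty acids in the mitochondrial matrix, read on its brighter probe set, 1439478_at, 8.98, 9.19, 9.23 and 9.13 in knockouts 6, 8, 9 and 10, against 9.32, 8.83, 8.67 and 9.23 in controls 1 to 4. Control 1 and control 3 were the highest and the lowest of all, with the knockouts between them. The difference was 0.12 (-0.22 to 0.46), and it was 0.0034 without control 3 and 0.22 without control 1.

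The other Acot2 probe set gave a wider gap. Probe set 1422996_at read 7.27, 7.91, 7.95 and 8.21 in knockouts 6, 8, 9 and 10, against 7.58, 7.42, 7.14 and 7.59 in controls 1 to 4. Of the knockouts, 3 were above every control, and knockout 6 was below 3 of the controls. The difference was 0.40 (-0.04 to 0.85), 0.09 within set A and 0.71 within set B. Over 45037 probe sets its unadjusted limma p was 0.0712 and its adjusted p 0.999. None of the members' 13 probe sets had an unadjusted p under 0.05, where 2.53% of all probe sets had one.

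Acot1, the cytosolic neighbour and close relative of Acot2, is no member but shares a probe set with it. Its own probe set, 1449065_at, read 8.12, 8.95, 8.77 and 9.54 in knockouts 6, 8, 9 and 10, against 8.07, 6.69, 4.75 and 8.95 in controls 1 to 4. Controls 2 and 3 lay far below the other arrays, and controls 1 and 4 within or next to the knockout range. The 4.79 between the lowest and the highest array was wider than in 99.7% of all genes. The difference was 1.73 (-0.13 to 3.60), with an unadjusted limma p of 0.0647, an adjusted p of 0.999 and an exact permutation p of 0.114. It was 0.94 without control 3 and 2.34 without control 4. The controls also differed in the 3' minus 5' signal of the pyruvate carboxylase control transcript, a measure related to RNA quality. It was 3.97 and 4.83 in controls 1 and 4, against 1.59 and 2.08 in controls 2 and 3. In the knockouts it was 4.65 in knockout 9 and at most 2.10 in the others. RNA quality here and below means the signal of this 1 transcript, and no other control transcript was set beside it. With that measure as a covariate the Acot1 difference was 2.02 (limma adjusted p = 0.978), and without controls 1 and 4 and knockout 9 it was 3.15 (limma adjusted p = 0.0962). That subset was chosen after seeing the data. It keeps only controls 2 and 3, the lowest arrays for Acot1, so a larger difference was fixed by the choice. The part of RNA quality in the spread of Acot1 was not tested further. Probe set 1422997_s_at, assigned to Acot2 and Acot1 together, read 8.46, 9.22, 9.01 and 9.69 in knockouts 6, 8, 9 and 10, against 8.42, 7.96, 7.14 and 9.06 in controls 1 to 4. It kept the low place of controls 2 and 3, with a difference of 0.95 (0.04 to 1.87; exact permutation p = 0.114, limma adjusted p = 0.999). The share of each gene in that signal cannot be told apart, and it was left out of the values of Acot2.

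**Figure D3:**
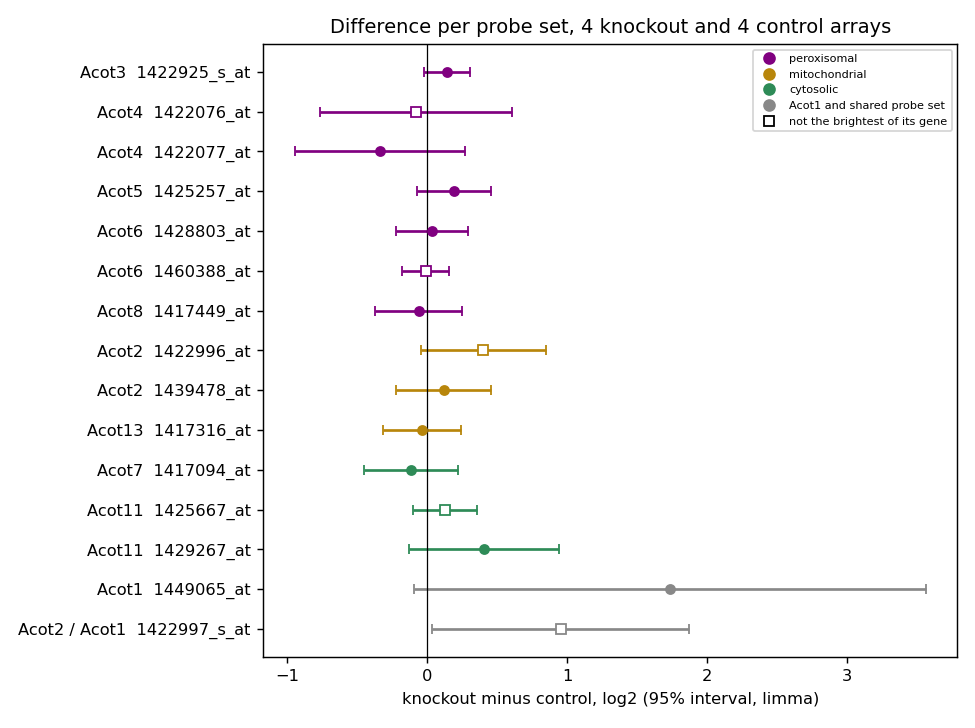
Log2 difference, knockout minus control, with 95% limma intervals for the 13 probe sets of the members, by compartment, and for Acot1 and the probe set shared by Acot2 and Acot1. All 13 member intervals include 0; Acot1 has the widest interval, from -0.09 to 3.56 when every probe set is fitted.

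The 2 cytosolic members differed in sign, and neither passed the test. Acot7, the main acyl-CoA hydrolase of brain, read 9.53, 9.26, 9.14 and 8.90 in knockouts 6, 8, 9 and 10, against 9.48, 9.47, 9.07 and 9.28 in controls 1 to 4. Knockout 6 was the highest and knockout 10 the lowest of the 8 arrays. The difference was -0.11 (-0.45 to 0.23), and it was -0.012 without knockout 10 and -0.22 without knockout 6. Set A was brighter than set B by 0.34, with -0.08 between the groups within set A and -0.15 within set B.

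Acot11, a thioesterase of brown fat that responds to cold and restrains energy use in mice, had the largest difference of the 9. Probe set 1429267_at read 6.62, 6.87, 6.94 and 7.32 in knockouts 6, 8, 9 and 10, against 6.47, 6.26, 6.20 and 7.20 in controls 1 to 4. Every knockout was above controls 1, 2 and 3, but control 4 was above 3 of the knockouts. The difference was 0.41 (-0.14 to 0.95; unadjusted limma p = 0.123, adjusted p = 0.999; exact permutation p = 0.171). It was 0.38 within set A and 0.43 within set B. Without control 4 it was 0.63, with an unadjusted limma p of 0.00572 and an adjusted p of 0.552. The dimmer probe set, 1425667_at, read 0.13 higher in knockout (-0.10 to 0.36). The 10 markers of brown and beige adipocytes averaged 6.43 to 6.72 in knockout and 6.29 to 6.76 in control. Of the 10, 5 had the higher mean in knockout, and only 2 lay above the median gene. Ucp1, the uncoupling protein that defines these cells, read 5.06 to 5.30 in knockout and 4.96 to 5.37 in control. Prdm16 read 6.45 to 7.09 in knockout and 5.94 to 6.46 in control. Elovl3 went the other way, with 4.99 to 5.23 in knockout and 5.17 to 6.13 in control.

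Acot11 on 1429267_at, Acot1 and the dimmer Acot2 probe set had the same highest and lowest arrays, knockout 10 and control 3. The other Acot11 probe set, 1425667_at, did not, with knockout 9 highest at 6.33 and control 1 lowest at 5.83. Control 2 was next lowest for 1429267_at and Acot1, while for 1422996_at knockout 6 came between them. The brighter Acot2 probe set and Acot6 on 1428803_at were also lowest in controls 3 and 2, but highest in control 1. The mean of 10 markers of ovary, oviduct and uterus also had its lowest values in control 3, at 6.19, and control 2, at 6.53, with 6.94 to 7.16 in knockout and 6.96 and 7.12 in controls 1 and 4. In that list Greb1 was far lower in control 3, at 4.92, and control 2, at 7.92, than elsewhere. Esr1, Ovgp1, Inhba and Pgr also had their lowest values in these controls, while Star, Foxl2, Amh and Hoxa11 did not. Inha was lowest in control 2, at 5.23, but control 3, at 5.44, lay above knockout 6, at 5.42. The mean of 6 kidney markers was lowest in the same arrays, at 5.59 in control 3 and 5.80 in control 2. It was 6.18 to 6.46 in knockout and 6.18 and 6.25 in controls 1 and 4. Among these markers Lrp2 fell the furthest, to 6.29 in control 3, against 8.96 to 9.85 in knockout. Umod, Slc34a1 and Cubn were also lowest in controls 2 and 3, by smaller steps. Slc22a6 was instead highest in these controls, at 5.69 in control 3 and 5.68 in control 2. Kap in control 3, at 6.77, lay above every array but knockout 9, at 6.79. Whether these signals share a source was not tested.

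**Figure D4:**
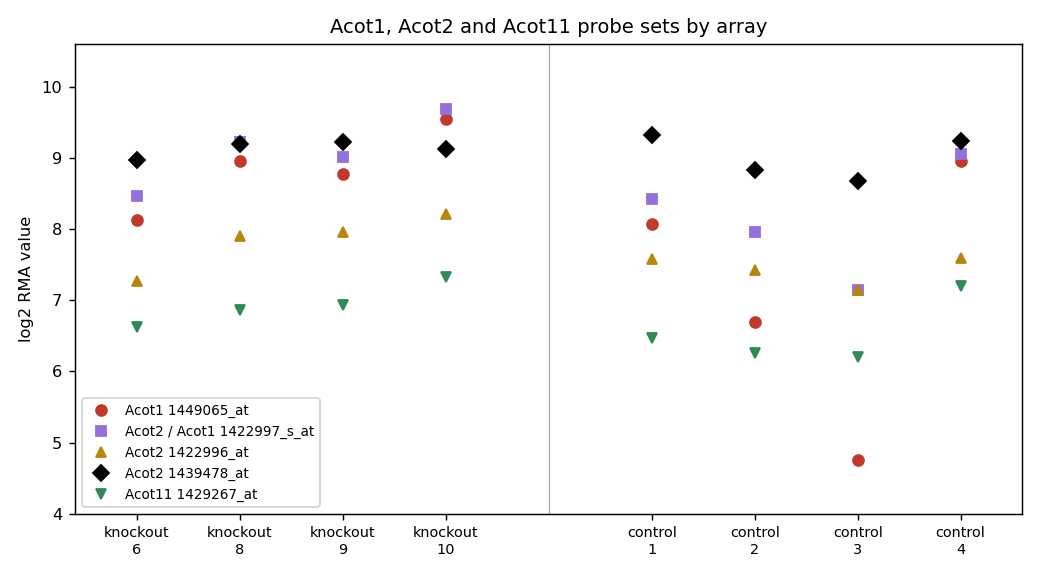
Log2 RMA value of 5 probe sets on each array, knockouts on the left and controls on the right. Acot1 reads 4.75 in control 3 and 6.69 in control 2, where the shared Acot2 / Acot1 probe set, Acot2 1422996_at and Acot11 are low too. Acot2 1439478_at is also lowest in these arrays, at 8.67 and 8.83, but within a narrower range, 8.67 to 9.32 over all arrays. On 1422996_at, knockout 6, at 7.27, lies below control 2, at 7.42.

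The genes most like the 3 members of widest range were sought among 9096 genes above the median level, by Pearson correlation over the 8 arrays, which share the array sets and the group difference with the members. For Acot4 these were Lig3, a DNA ligase (r = 0.991), and Tm7sf2, a sterol reductase of cholesterol synthesis (r = 0.985), and 18 genes had r above 0.95. For Acot11 they were Gm38462 (r = 0.991) and Bsg, the cell surface protein basigin (r = 0.973), and for Acot2 they were Med14, a Mediator subunit (r = 0.988), and the chaperone Dnajc7 (r = 0.972). With 8 arrays and so many genes searched, high values of r are common, so these are descriptions only.

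Other genes that handle acyl-CoA gave no call either. Of 19 measured thioesterases and CoA hydrolases outside the 9, 7 read higher and 12 lower in knockout (median -0.01), and 0 passed in either direction. Besides Acot1 the smallest unadjusted p was that of Nudt19, a peroxisomal CoA hydrolase in mice, at 9.24 ± 0.12 in knockout and 9.04 ± 0.22 in control, a difference of 0.20. Of 25 measured partners, such as carnitine acyltransferases, acyl-CoA synthetases and enzymes of CoA synthesis, 7 were higher and 18 lower (median -0.08, and -0.020 without control 1), with 0 past the threshold. Crat, which moves acetyl groups to carnitine in mitochondria and peroxisomes, differed by -0.24 (-0.47 to -0.01; exact permutation p = 0.114, limma adjusted p = 0.999). Its other probe sets differed by -0.08 and -0.18. Acbd5, an acyl-CoA binding protein of the peroxisomal membrane, read 10.92, 11.02, 11.06 and 11.06 in knockouts 6, 8, 9 and 10, against 11.13, 11.15, 11.24 and 11.09 in controls 1 to 4. All its knockout values were below all its control values, by a mean of -0.14, with an exact permutation p of 0.0286, the smallest possible, and a limma adjusted p of 0.999.

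Targets of PPARalpha, the factor that induces several Acot genes in liver, gave no call. Of 26 measured, 9 were higher and 17 lower (median -0.07), and 0 passed, where 46.7% of all genes were higher. The median was 0.01 without control 1, the array with the most liver signal. Ehhadh, the bifunctional enzyme of peroxisomal beta-oxidation, read 9.39, 9.36, 9.18 and 9.18 in knockouts 6, 8, 9 and 10, against 10.23, 9.86, 9.24 and 9.76 in controls 1 to 4. Control 3 lay among the knockouts and the other controls above them. The difference was -0.49 (-0.93 to -0.06; exact permutation p = 0.0857, limma adjusted p = 0.999). Acaa1a, a peroxisomal thiolase, differed the other way, by 0.16 (exact permutation p = 0.0571, limma adjusted p = 0.999), and by 0.10 on its other probe set.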

How the data were processed

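Gonadal fat RNA was measured on Affymetrix arrays, 1 per sample. The deposited log2 values are RMA values per the submitters' processing notes, with no version named. RMA subtracts background, puts arrays on a common distribution and merges the probes of a set, and it can compress dim signals. The table held 45101 probe sets, of which 64 controls were left out of tests. Names came from the platform annotation of 2016: 34945 probe sets had 1 symbol, 932 several and 9160 none. Each gene took its probe set of highest mean over 8 arrays, giving 18193 genes. Groups were compared with limma 3.58.1 (R 4.3.3; lmFit, eBayes, no covariate), adjusted over all genes by Benjamini-Hochberg, with unadjusted 95% intervals. Exact permutation tests were two-sided over 70 arrangements. The named genes are the members, the 2 of each list with the smallest unadjusted p and the 2 most correlated with each of the 3 members of widest range. The steps were tested on simulated data of 18193 genes. There limma called 29 of 50 genes changed 1.5-fold and 43 of 50 changed 2-fold, with 7 false calls. Values were drawn for each gene alone, with no array sets or other variation shared between genes. These counts therefore do not give the share of changes that would be found in the real data. Members and lists were chosen with earlier results of these data known. Promoter sequences are from RefSeq (GRCm38.p6). Alternatives changed the moderation, filter, normalisation, probe set rule, array weights, covariates and arrays used. Figures were drawn with matplotlib 3.10.9.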

Additional observations from a re-analysis of the deposited data

Results flagged for a closer look

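In 17 probe sets of the members, Acot1 and Pex5, each with 2 groups of 4 arrays, 1 array stood far from the rest of its group. For the dimmer Acot11 probe set 1425667_at, control 1 read 5.83, while the other controls lay between 6.06 and 6.09, a gap of 0.880 of the group's whole range, above Dixon's 95% limit for 4 values. Chance gives about 1 such array in 20 groups, and 34 groups were looked at. Control 1 also had the highest mean of liver markers. On the brighter Acot11 probe set, 1429267_at, it lay inside the control range.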

How the results depend on the processing

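No member passed an adjusted p of 0.05 in any fit run, and the lowest adjusted p was 0.224. Of 180 alternative values of the 9 members, 171 kept direction and side of the threshold and 9 turned in sign, all in Acot6, Acot8 and Acot13, whose differences are near 0. Leaving out each array in turn, Acot6 ran from -0.0482 to 0.114, Acot8 from -0.175 to 0.0388, Acot13 from -0.108 to 0.0649 and Pex5 from -0.120 to 0.0557, while Acot2 ran from 0.0034 to 0.218, Acot4 from -0.505 to -0.113, Acot5 from 0.124 to 0.267 and Acot7 from -0.222 to -0.0123 with no turn. Acot6 was -0.0114 on 1460388_at; Acot13 was 0.00974 within set B; Pex5 was 0.0115 with its probe sets averaged, 0.14 within set B and 0.0365 on 1422063_a_at. The cause of these turns was not tested. The count of members at an unadjusted p under 0.05 was 0 to 2 over the fits without 1 array, 1 with array weights (Acot11), 1 with the RNA quality covariate (Acot3), 2 with the array set as a block (Acot4 and Acot5) and 2 within set A (Acot4 and Acot11). The count of members higher was 2 once dim genes were left out, since 4 members are dim and drop. Over all genes the count at an unadjusted p under 0.05 ran from 283 to 1566 over the fits without 1 array and was 206 with dim genes left out, 1039 with array weights, 703 with the block, 674 with the RNA quality covariate, 1278 within set A, 244 within set B and 1139 for every probe set. Leaving out controls 1 and 4 and knockout 9, the arrays with the largest 3' minus 5' difference of the pyruvate carboxylase control transcript, was chosen after seeing the data. It keeps only controls 2 and 3, the lowest arrays for Acot11 on 1429267_at and Acot2 on 1439478_at. It gave 155 genes past the threshold and 2286 at an unadjusted p under 0.05, 0 and 3 of them members (Acot11 at 0.71, Acot2 at 0.35 and Acot5 at 0.32), with Acot13 at 0.0473. Acbd5 was past 0.05 in the exact test alone, at a difference of -0.14. No paired analysis was possible because the groups share no replicate numbers.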

Other observations

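Acot9, a mitochondrial thioesterase outside the 9 genes, read 10.58 ± 0.07 in knockout and 10.68 ± 0.20 in control, and Them4 7.31 ± 0.20 in knockout and 7.51 ± 0.25 in control (SD, n = 4 each). Cyp4a14, an omega-hydroxylase that makes precursors of dicarboxylic acids in liver, read 9.19 in control 1 and between 4.44 and 5.82 on the other 7 arrays. Acot4 was also highest in control 1, which had the highest mean of liver markers, at 10.80. Greb1, an oestrogen-regulated gene, read 9.69, 10.12, 9.13 and 9.85 in knockouts 6, 8, 9 and 10, against 9.35, 7.92, 4.92 and 9.57 in controls 1 to 4. Lrp2, the endocytic receptor megalin, read between 8.96 and 9.85 in the knockouts, against 9.52 and 9.53 in controls 1 and 4 and 6.29 in control 3. Both were lowest in control 3 and next lowest in control 2, as Acot1 was. These 5 genes were chosen after their values were seen, and no cause was tested.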
